A study of Mus musculus with 3 samples.

Results

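The occupancy of the transcription factors FLI1 and RUNX1 was examined at 10 genes of the granulocyte and monocyte lineage in mature megakaryocytes, the cells that release platelets. The genes are *Mpo*, *Elane*, *Ctsg*, *Prtn3*, *Lyz2*, *Cebpa*, *Cebpe*, *Csf1r*, *Csf3r* and *Itgam*. They were taken by name, and all 10 were found among the 22367 protein-coding genes of the GENCODE M1 annotation of mouse genome build mm9 that were counted. For each gene, FLI1, RUNX1 and input reads were counted within 2 kb of the gene start and in bins of 400 bp over the gene body with 20 kb to either side, called its territory here.

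The 3 libraries came from wild-type CD1 mice. Liver cells of labelled embryonic day 15 (the methods give a day earlier) were cultured for 5 days in thrombopoietin, the cytokine that drives megakaryocyte growth, and mature megakaryocytes were collected through a gradient of bovine serum albumin. Per the methods, other lineages were removed with antibodies against TER119, GR1 and CD11b. GR1 marks granulocytes, and CD11b is the product of *Itgam*, one of the 10 genes. The protocol in the labels, which covers several lineages, also lists CD41, a megakaryocyte protein. Chromatin was precipitated with an antibody against FLI1 or RUNX1, or sequenced without precipitation as input. Each library pools the DNA of 3 or more replicates (precipitates for ChIP), so that there was 1 library for each antibody, no spread between cultures could be measured, and every interval given here is an exact 95% interval that covers counting error alone. The methods describe an input digested with micrococcal nuclease beside sonicated ChIP chromatin, whereas the labels describe sonication only. The deposited files hold DNA positions, which show occupancy and not expression. The cell type could therefore not be checked by RNA from these files, although the paper reports RNA profiles of its cell populations that showed depletion of other lineages. A residual share of granulocytes or macrophages, which the study describes as small, cannot be read from these libraries. Over the starts of 20 megakaryocyte genes, FLI1 reads per 1000000 reads of the library (RPM) ran from 1.05 to 5.5 times the input RPM, with *Itga2b* the highest, and FLI1 was called at 11 of the 20 by the rule given below for gene starts, against 25.5% of all starts.

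Granulocytes and monocytes arise from progenitors that they share, through several steps, with megakaryocytes. The 10 genes mark that other branch. *Mpo* (myeloperoxidase), *Elane* (neutrophil elastase), *Ctsg* (cathepsin G) and *Prtn3* (proteinase 3) encode proteins that are packed into the primary granules of neutrophils, and *Lyz2* encodes lysozyme M of granulocytes and macrophages. *Cebpa* and *Cebpe* encode C/EBP transcription factors of early and late granulocyte development. *Csf1r*, *Csf3r* and *Itgam* encode the receptor for M-CSF, the receptor for G-CSF and the alpha chain of the Mac-1 integrin. FLI1 belongs to the ETS family, which reads a core of GGAA. RUNX1 reads TGTGGT or close forms and is best known for its role in the formation of blood stem cells. RUNX1 is active in both the myeloid and the megakaryocyte branch, and in myeloid cells it is known to act at several of these 10 genes, *Csf1r* among them.

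After mitochondrial and repeated input positions were left out, 62946422 FLI1, 3973856 RUNX1 and 21745220 input reads remained. A gene start had a median of 137 FLI1, 9 RUNX1 and 40 input reads within 2 kb, so that RUNX1 values at single genes rest on few reads. The supplement of the paper lists many times more RUNX1 tags and peaks than the deposited file gives here, and whether the file holds the whole library is not known, so that the low RUNX1 counts are those of this file. The median gene start had an FLI1 ratio (FLI1 RPM over input RPM) of 1.28 and a RUNX1 ratio of 1.18. A start was called where the ratio was 2 or more, its lower bound was above 1 and at least 5 input reads were present. By this rule FLI1 was called at 1 of the 10 starts, against 25.5% of the 21574 protein-coding starts tested, and RUNX1 was called at 1 of the 10, against 14.1%. The FLI1 call was *Mpo* and the RUNX1 call was *Cebpa*. With so few genes these shares do not set the 10 apart from other genes.

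**Figure D1:**
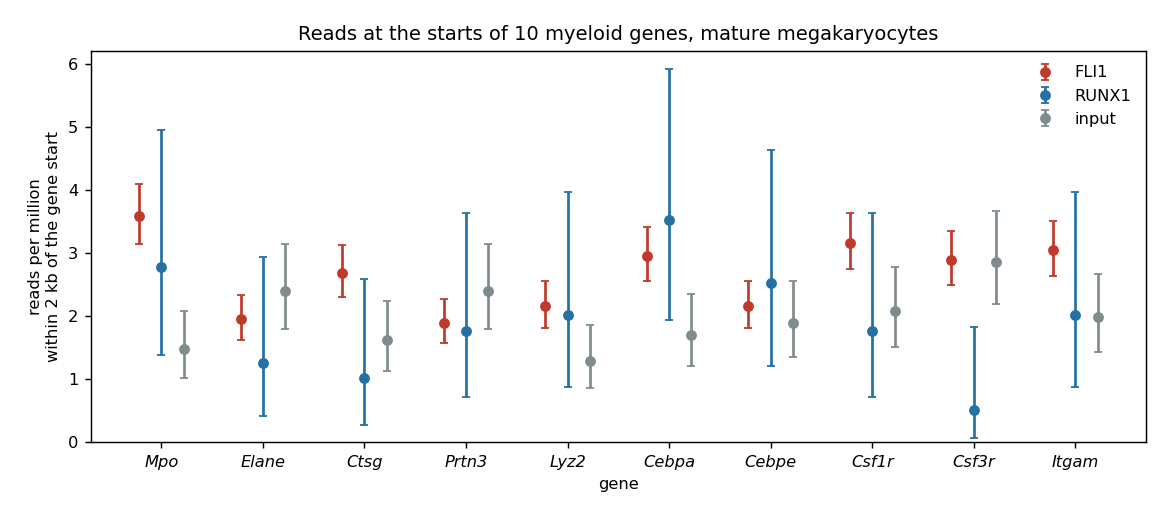
RPM within 2 kb of the start of each of the 10 genes (vertical axis) in the FLI1, RUNX1 and input libraries, with exact 95% Poisson intervals as bars (1 library each). The FLI1 and input intervals are apart at *Mpo* (3.59 against 1.47), *Cebpa* (2.95 against 1.7) and *Ctsg* (2.68 against 1.61), while the RUNX1 intervals are wide at every gene and lowest at *Csf3r* (0.503). Bars that overlap do not show equal levels, and the interval of the FLI1 ratio itself lay above 1 at 6 of the 10 genes. How many of all starts have FLI1 and input bars apart was not counted.

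Among the granule proteins, *Mpo* (chr11:87607083-87617915, plus strand) had the highest FLI1 level. Its start held 226 FLI1, 11 RUNX1 and 32 input reads, which are 3.59, 2.77 and 1.47 RPM. FLI1 was 2.44 times input (95% interval 1.68 to 3.65), higher than at 83.5% of gene starts, and RUNX1 was 1.88 times input (0.86 to 3.83), an interval that includes 1. Within 1 kb of the start the RUNX1 ratio was 3.79 and was called, as were 16.6% of all starts. The FLI1 reads lay close together. A called region is a run of bins with at least 20 FLI1 reads and at least 3 times the reads expected from the whole genome or from input at that place, whichever is larger. At *Mpo* such a region had its summit 29 bp downstream of the gene start, 9.19-fold over its expectation, with 130 FLI1, 2 RUNX1 and 1 input reads in the 400 bp around the summit. This was the highest fold of the regions in the territories of the 10 genes. A second region lay 3305 bp upstream in intergenic DNA (5.18-fold, with 75 FLI1, 2 RUNX1 and 5 input reads), and another 14878 bp downstream in an intron of *Lpo*, the lactoperoxidase gene (4.71-fold, with 139 FLI1, 1 RUNX1 and 11 input reads). All 3 summits held an ETS string (CCGGAA or CAGGAA on either strand) within 50 bp. Other forms of the GGAA core were not searched, here or below, so that a summit without an ETS string can still hold such a core. Their sequences are shown because *Mpo* had the only FLI1 call at a start and the most FLI1 regions of a granule gene. They are given on the plus strand of mm9, with ETS strings and RUNX strings (TGTGGT or TGCGGT, on either strand) in capitals.
Mpo upstream, chr11:87603728-87603828: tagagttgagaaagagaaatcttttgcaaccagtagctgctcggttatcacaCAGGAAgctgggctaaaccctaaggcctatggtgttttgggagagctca
Mpo start, chr11:87607062-87607162: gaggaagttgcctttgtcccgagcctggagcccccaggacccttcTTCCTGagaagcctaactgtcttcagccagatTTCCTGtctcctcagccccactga
Mpo downstream, chr11:87621911-87622011: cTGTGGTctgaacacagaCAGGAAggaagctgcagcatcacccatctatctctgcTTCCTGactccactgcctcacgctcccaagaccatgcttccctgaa
The start region holds 2 ETS strings and no RUNX string. The downstream region holds 2 ETS strings and 1 RUNX string, but had a single RUNX1 read. The RefSeq start of *Mpo* lies 203 bp downstream of the GENCODE start, and with the window placed there the FLI1 ratio was 2.28 (1.59 to 3.35). Within 1 kb of the GENCODE start the FLI1 ratio was 4.78. The FLI1 call was lost within 5 kb (1.61), at 3-fold and with ratios divided by the median over all starts (1.91).

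*Elane* (chr10:79349057-79350961, plus strand) and *Prtn3* (chr10:79337221-79345919, plus strand) are neighbours. The *Elane* start held 123 FLI1, 5 RUNX1 and 52 input reads, or 1.95, 1.26 and 2.39 RPM. FLI1 was 0.82 times input (0.59 to 1.15) and RUNX1 was 0.53 times input (0.16 to 1.31), so that neither library exceeded input there. The *Prtn3* start held 119 FLI1, 7 RUNX1 and 52 input reads, or 1.89, 1.76 and 2.39 RPM. Its FLI1 ratio of 0.79 (0.57 to 1.12) was the lowest of the 10 genes, and its RUNX1 ratio was 0.74 (0.28 to 1.63). For *Prtn3* the start chosen mattered. The RefSeq start lies 5191 bp downstream of the 5′ end of the GENCODE record, and there 351 FLI1, 17 RUNX1 and 70 input reads gave an FLI1 ratio of 1.73 (1.34 to 2.27) and a RUNX1 ratio of 1.33 (0.73 to 2.28). A single FLI1 region lay in the territories of both genes. Its summit was inside the GENCODE record of *Prtn3*, 1714 bp upstream of the RefSeq start of *Prtn3* and 8359 bp upstream of *Elane*. It was 4.76-fold over expectation, with 167 FLI1, 6 RUNX1 and 10 input reads, the most FLI1 and the most RUNX1 reads of the regions at the 10 genes. The summit holds 1 ETS string and is shown as the only summit called in either territory.
Prtn3 and Elane, chr10:79340648-79340748, plus strand: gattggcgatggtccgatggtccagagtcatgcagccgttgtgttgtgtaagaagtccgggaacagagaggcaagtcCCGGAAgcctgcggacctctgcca
At the far upstream end of the *Prtn3* territory, 2 further called bins belong to a region whose summit, 16 bp from the start of *Ptbp1* (a splicing regulator), falls just outside it.

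*Ctsg* (chr14:56718718-56721411, minus strand) had 169 FLI1, 4 RUNX1 and 35 input reads at its start, or 2.68, 1.01 and 1.61 RPM. The FLI1 ratio was 1.67 (1.15 to 2.47), and the RUNX1 ratio was 0.63 (0.16 to 1.75). *Ctsg* was one of 2 genes with no called bin in the territory. Its strongest bin, 2789 bp upstream, reached 2.9-fold with 39 FLI1 reads, just under the limit of 3, and the adjoining bin further upstream held 55 FLI1 but also 9 input reads. This absence depends on both the place of the bins and the rule. In the territory 2 bins were called when bins were shifted by 200 bp, 3 when input was left out and 2 at 2.5-fold. With the bins as placed, the nearest called FLI1 summit lay 156083 bp away, a distance that does not hold with shifted bins.

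*Lyz2* (chr10:116714390-116719377, minus strand) had 136 FLI1, 8 RUNX1 and 28 input reads at its start, or 2.16, 2.01 and 1.29 RPM. FLI1 was 1.68 times input (1.11 to 2.62), which was not called over the 4-kb window. The reads were nevertheless concentrated at the promoter, where a region with its summit 13 bp upstream of the gene start was 3.52-fold over expectation, with 51 FLI1, 2 RUNX1 and 5 input reads. A stronger region lay 19679 bp upstream, at the edge of the territory and 9132 bp from the start of the related lysozyme gene *Lyz1* (8.17-fold, with 107 FLI1, 1 RUNX1 and 5 input reads). The promoter summit is shown because it was one of 2 regions whose summit held both an ETS and a RUNX string, the other being *Mpo* downstream. The distant summit held neither string within 50 bp.
Lyz2 start, chr10:116719340-116719440, minus strand: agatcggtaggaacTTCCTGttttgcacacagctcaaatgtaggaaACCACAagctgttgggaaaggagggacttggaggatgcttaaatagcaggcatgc

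Of the transcription factor genes, *Cebpa* (chr7:35904312-35906945, plus strand) had 186 FLI1, 14 RUNX1 and 37 input reads at its start, or 2.95, 3.52 and 1.7 RPM. RUNX1 was 2.07 times input (1.03 to 3.92), higher than at 84.8% of gene starts and the highest ratio of the 10 genes, on 14 reads. This call was lost within 1 kb of the start (2.55), within 5 kb (1.29), at 3-fold and with ratios divided by the median over all starts (1.75). FLI1 was 1.74 times input (1.22 to 2.54). The GC content of its window, 62.4%, was the highest of the 10, and the part of base composition in these ratios was not tested. The FLI1 signal was narrow. Within 1 kb of the start the FLI1 ratio was 2.81 and was called, as were 36.9% of all starts, and within 5 kb it was 0.91. The start itself had no called bin. The called region of *Cebpa* lay 8497 bp downstream in intergenic DNA, spanned 3 bins and was 3.8-fold over expectation, with 95 FLI1, 3 RUNX1 and 6 input reads. Beyond the territory, a stronger FLI1 region was found 37333 bp downstream of the start (11.0-fold, with 184 FLI1, 4 RUNX1 and 4 input reads). A RUNX1 region was called with its summit 37556 bp downstream, with 7 RUNX1, 118 FLI1 and 5 input reads. *Cebpa* is known for a distal downstream enhancer that acts in myeloid cells, and whether these regions coincide with it was not checked. The next protein-coding start to the FLI1 summit, that of *Slc7a10*, lies 29759 bp from it. The 2 downstream FLI1 summits are shown on the plus strand, and in the second a RUNX and an ETS string overlap by 2 bases in ACCACAGGAA.
Cebpa near, chr7:35912759-35912859: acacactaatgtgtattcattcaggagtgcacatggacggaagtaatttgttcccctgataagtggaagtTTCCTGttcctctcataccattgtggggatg
Cebpa distal, chr7:35941595-35941695: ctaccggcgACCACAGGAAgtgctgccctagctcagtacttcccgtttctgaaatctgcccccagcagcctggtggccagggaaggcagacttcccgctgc

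*Cebpe* (chr14:55329200-55331011, minus strand) had 136 FLI1, 10 RUNX1 and 41 input reads at its start, or 2.16, 2.52 and 1.89 RPM. The FLI1 ratio was 1.15 (0.8 to 1.67) and the RUNX1 ratio 1.33 (0.6 to 2.71), both with intervals that include 1. *Cebpe* was the other gene without a called bin, but 3 FLI1 bins were called in its territory when bins were shifted by 200 bp, 3 without input and 2 at 2.5-fold. Its strongest FLI1 bin with the bins as placed, 6011 bp downstream of the start, reached 2.82-fold with 47 reads. With that placement the nearest called summits of both factors lay at the start of *Acin1*, 25180 bp downstream for FLI1 (19.4-fold, with 248 FLI1, 8 RUNX1 and 3 input reads) and 25313 bp for RUNX1.

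Of the receptor genes, *Csf3r* (chr4:125701794-125722219, plus strand) differed most between the 2 factors. Its start held 182 FLI1 reads and 2 RUNX1 reads beside 62 input reads, or 2.89, 0.503 and 2.85 RPM. FLI1 equalled input, with a ratio of 1.01 (0.76 to 1.38), whereas RUNX1 was 0.18 times input (0.02 to 0.67), lower than at all but 1.72% of gene starts. FLI1 RPM was 5.74 times RUNX1 RPM (1.57 to 47.8). The only other gene whose interval for this ratio excluded 1 was *Ctsg*, at 2.67 (1.02 to 9.9). The ratio was higher than at 98.3% of gene starts for *Csf3r* and at 92.9% for *Ctsg*. How many of all starts have such an interval was not counted. With the coding transcript start that had the most RUNX1 reads, the RUNX1 ratio of *Csf3r* was 0.93. At the RefSeq start, 109 bp downstream, it was 0.17 (0.02 to 0.64), and within 1 kb of the GENCODE start it was 0.0. Of its 3 FLI1 regions, 2 lay at the starts of other genes, 12 bp from that of *Mrps15* (5.11-fold, with 73 FLI1, 1 RUNX1 and 5 input reads) and 206 bp from that of *Oscp1* (3.19-fold, with 42 FLI1, 0 RUNX1 and 5 input reads). The remaining region was intergenic, 6707 bp upstream of *Csf3r* (3.19-fold, with 47 FLI1, 0 RUNX1 and 3 input reads). The exact interval of a count of 0 RUNX1 reads reaches 0.928 RPM, so that RUNX1 could not be told from input at these sites. The upstream summit held no ETS or RUNX string but 3 C/EBP strings (TTGCNNAA on either strand), the most of the 16 FLI1 regions. It is shown on the plus strand with the C/EBP strings in capitals.
Csf3r upstream, chr4:125695037-125695137: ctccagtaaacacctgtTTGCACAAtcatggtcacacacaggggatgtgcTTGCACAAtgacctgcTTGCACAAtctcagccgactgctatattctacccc
*Csf3r* also had a called RUNX1 bin, 7606 bp downstream of the start in intron 4, with 7 RUNX1, 7 FLI1 and 6 input reads (6.38-fold). FLI1 was not raised there.

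*Itgam* (chr7:135206154-135271674, plus strand), the longest of the 10 genes, had 192 FLI1, 8 RUNX1 and 43 input reads at its start, or 3.05, 2.01 and 1.98 RPM. FLI1 was 1.54 times input (1.1 to 2.2), and RUNX1 was 1.02 times input (0.41 to 2.19). It had 4 FLI1 regions, the most of any of the genes. They lay 13564 bp upstream in intergenic DNA (3.4-fold, with 61 FLI1, 3 RUNX1 and 6 input reads), 927 bp downstream in the first intron (5.05-fold, with 63 FLI1, 1 RUNX1 and 2 input reads), 3145 bp downstream in the second intron (4.39-fold, with 94 FLI1, 3 RUNX1 and 7 input reads) and 71214 bp downstream in an intron of *Itgax*, the gene of the related integrin chain CD11c (7.39-fold, with 99 FLI1, 4 RUNX1 and 4 input reads). The 2 intronic summits of *Itgam* are shown on the plus strand because they differ in content, the first with a RUNX string and no ETS string and the second the reverse. The first nevertheless holds the GGAA core in forms that were not searched.
Itgam first intron, chr7:135207031-135207131: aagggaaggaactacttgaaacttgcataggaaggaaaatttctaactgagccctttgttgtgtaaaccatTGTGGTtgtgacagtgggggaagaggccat
Itgam second intron, chr7:135209249-135209349: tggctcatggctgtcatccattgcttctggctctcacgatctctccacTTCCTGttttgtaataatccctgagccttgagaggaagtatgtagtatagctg
The region with the RUNX string had 1 RUNX1 read and that without it had 3, counts that do not differ beyond their intervals. A RUNX1 bin was called 37646 bp downstream, in intron 12, with 7 RUNX1, 12 FLI1 and 3 input reads (8.24-fold).

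*Csf1r* (chr18:61265226-61291803, plus strand) had 199 FLI1, 7 RUNX1 and 45 input reads at its start, or 3.16, 1.76 and 2.07 RPM. FLI1 was 1.53 times input (1.1 to 2.16) and RUNX1 was 0.85 times input (0.32 to 1.9). The strongest FLI1 signal lay inside the gene. A region 2256 bp downstream of the start was 8.3-fold over expectation, with 127 FLI1, 2 RUNX1 and 9 input reads, and a second, 3106 bp downstream, was 7.11-fold, with 164 FLI1, 5 RUNX1 and 5 input reads. Both summits fall in the first intron of the longest coding transcript. *Csf1r* is known for an intronic enhancer used in macrophages, and whether either region coincides with it was not checked. The first summit had an ETS string within 50 bp, and the second had none of the strings searched. Over 5 kb to either side, a window that takes in both regions, *Csf1r* was the only one of the 10 genes called for FLI1, at 2.02 against 7.21% of all starts.

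The 10 starts could be ordered only in part. FLI1 ratios ran from 0.79 at *Prtn3* to 2.44 at *Mpo*, and in 6 genes (*Mpo*, *Ctsg*, *Lyz2*, *Cebpa*, *Csf1r* and *Itgam*) the interval lay wholly above 1. The median over all starts was itself 1.28. These 6 genes were also those called at 1.5-fold, as were 39.5% of all starts. With ratios divided by the median over all starts, none of the 10 was called, against 14.7% of all starts. Of the 45 pairs of genes, 7 had FLI1 intervals that did not overlap. *Mpo* lay above *Elane*, *Prtn3*, *Cebpe* and *Csf3r*, *Cebpa* lay above *Elane* and *Prtn3*, and *Ctsg* lay above *Prtn3*. Of these 7 pairs, 3 rest on the GENCODE start of *Prtn3*, whose ratio at the RefSeq start was 1.73. The granule genes held the highest ratio, at *Mpo*, and with *Elane* also one of the lowest. No neighbours in the order differed beyond their intervals. For RUNX1 only *Mpo* and *Cebpa* could be told from *Csf3r*, and 8 of the 10 intervals included 1. For neither factor was it counted how many of all starts have an interval that includes 1 or lies above it. Pairs among all starts were not counted either, so that the number of pairs apart does not set the 10 genes apart from others.

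Over the whole territories neither library exceeded input by much. FLI1 ratios ran from 0.83 (0.76 to 0.92) at *Elane* to 1.11 (0.98 to 1.24) at *Lyz2*. RUNX1 ratios ran from 0.7 (0.57 to 0.85) at *Csf1r* to 1.12 (0.97 to 1.3) at *Itgam*, with *Mpo* at 0.73 (0.58 to 0.91). No interval lay wholly above 1. The FLI1 signal at these genes was thus made of narrow sites in a territory near or below the level of input, where each library is scaled to its total reads. Counting each bin once, 22 of the 1274 bins in the 10 territories were called for FLI1, which is 1.73%, against 0.648% of the bins in the territories of all protein-coding genes. The shares of bins were not matched for gene length. Some of the 22 bins belong to regions at the starts of *Ptbp1*, *Mrps15* and *Oscp1* or in introns of *Lpo* and *Itgax*. At least 1 FLI1 bin was found in 8 of the 10 genes, against 60.4% of all protein-coding genes and 65.3% of the 15547 genes with a body within the range of lengths of the 10. *Prtn3* and *Itgam* had 4 called bins each, *Mpo*, *Cebpa*, *Csf1r* and *Csf3r* had 3, and *Elane* and *Lyz2* had 2. The called bins whose summits lay in the territories formed 16 regions, with folds from 3.19 to 9.19 and a median of 4.9, close to the median of 4.72 over the 21532 FLI1 regions of the genome. Of the 16, 7 lay within 2 kb of a coding transcript start (5 of them at one of the 10 genes and 2 at *Mrps15* and *Oscp1*), 4 in introns and 5 in intergenic DNA, and none in an exon. For RUNX1, 2 of the 1274 bins were called, which is 0.157% against 0.0403%, and 2 of the 10 genes had such a bin, against 9.6% of all genes and 9.87% of genes of like length. Both RUNX1 bins sat at the minimum of 7 reads, and neither was called when bins were shifted by 200 bp.

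**Figure D2:**
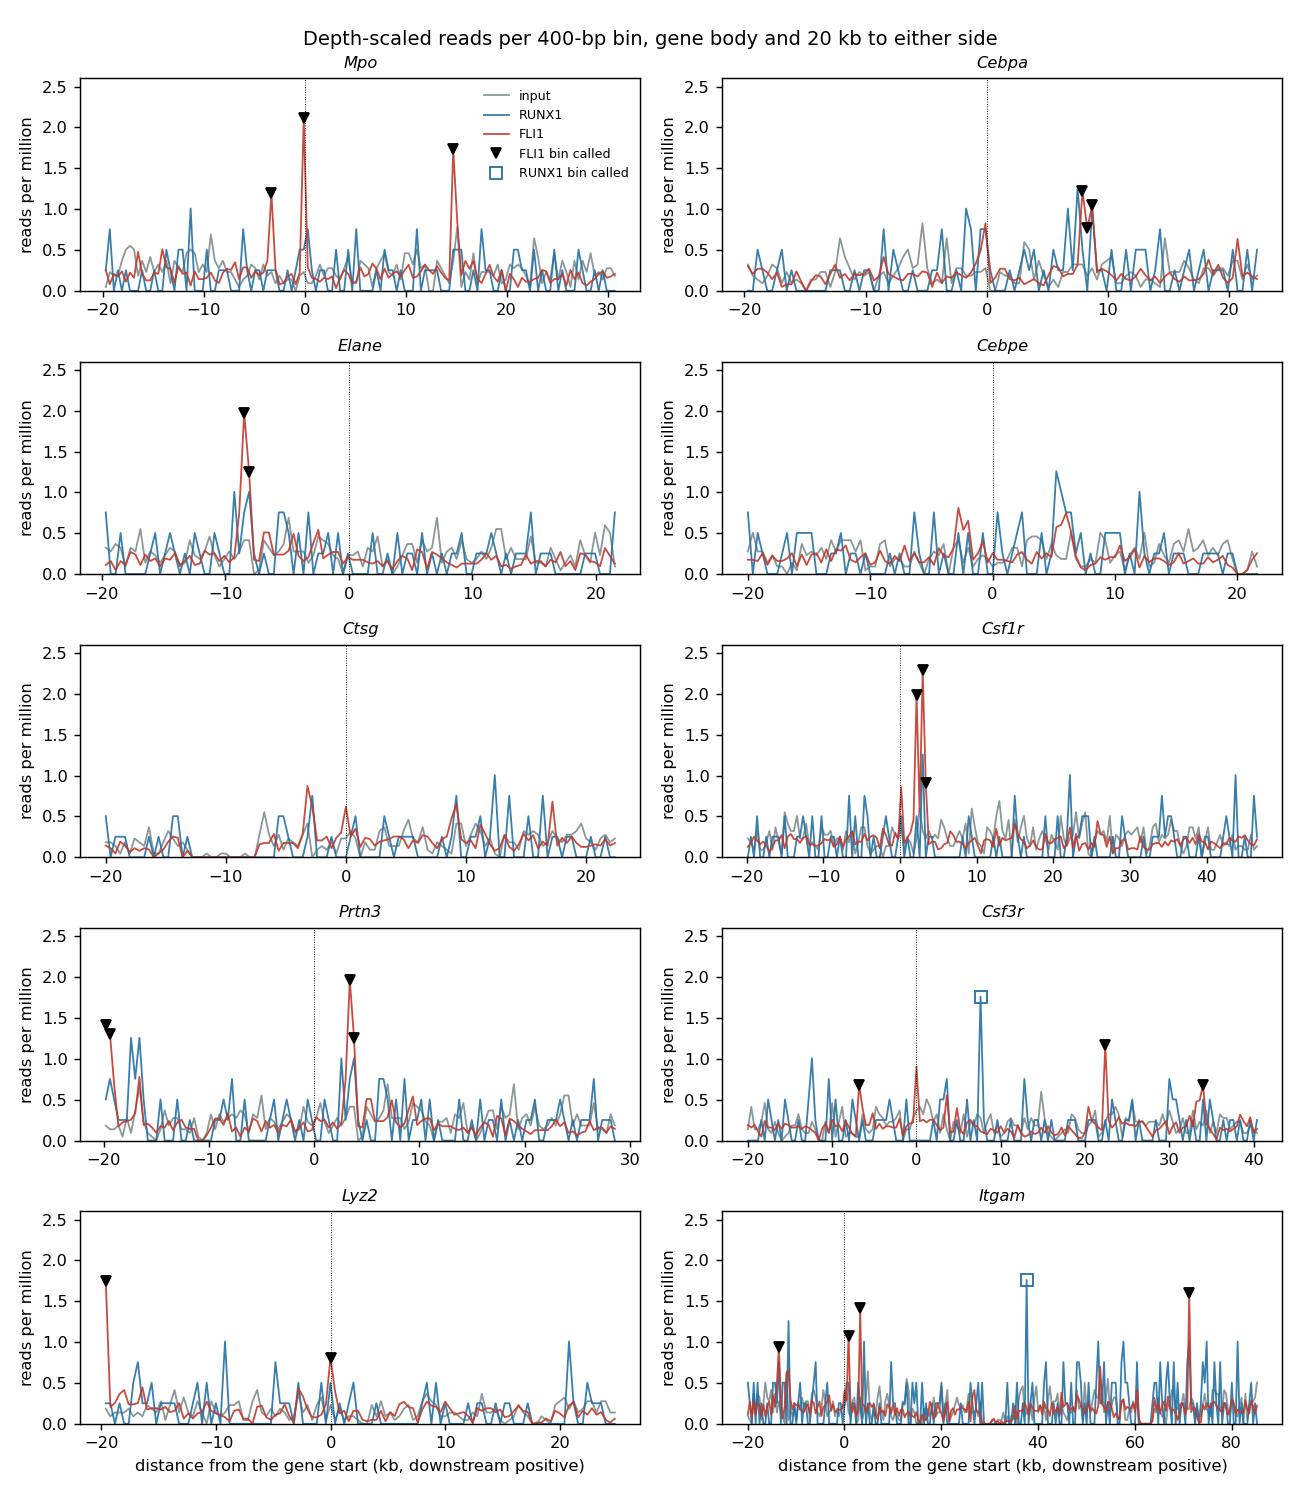
Depth-scaled reads of FLI1, RUNX1 and input per 400-bp bin (vertical axis, RPM) against distance from the gene start in kb, for each of the 10 genes with 20 kb to either side. Triangles mark called FLI1 bins and squares called RUNX1 bins; *Ctsg* and *Cebpe* have none, and the 2 RUNX1 bins in *Csf3r* and *Itgam* do not lie on FLI1 bins.

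RUNX1 reads were then counted at the 16 FLI1 regions, which had been chosen without use of RUNX1. The 400-bp windows around the 16 summits held 36 RUNX1 reads, which is 2.25 per window (1.58 to 3.11), against 944 reads in the 1252 uncalled bins of the same territories, which is 0.754 per bin. The ratio was 2.98 (2.08 to 4.16). Input, at 89 reads in the 16 windows and 5855 in the other bins, had a ratio of 1.19 (0.95 to 1.47). If input was digested with micrococcal nuclease, as the methods describe, this ratio does not show how a sonicated input would stand at these windows. FLI1 itself, which chose the regions, had 1534 reads, or 95.9 per window. Over the 21532 FLI1 regions of the genome, beside the uncalled bins of all territories, the RUNX1 ratio was 3.46 (2.28 reads per window against 0.658 per bin) and the input ratio 1.22. The 16 regions were thus near FLI1 regions in general in this respect. RUNX1 reads were more frequent at the 16 as a set than in the bins around them, although no region had more than 6, none met the RUNX1 rule, and at 2 of them no RUNX1 read was found. Taken singly, the interval of RUNX1 over input lay above 1 at the second *Csf1r* region (5.47 times, 1.26 to 23.78, on 5 reads in each library). It also did at the region in *Itgax* (5.47 times, 1.02 to 29.38, on 4 reads in each). At the other 14 the interval included 1. The 16 intervals were not adjusted for their number, and how many of all FLI1 regions have such an interval was not counted. When the FLI1 reads were thinned at random to the RUNX1 depth and judged by the RUNX1 rule, 2 bins were called, 1 at *Csf1r* and 1 at *Itgam*, and both were among the 22. The RUNX1 rule at the full FLI1 depth, added once the data had been seen, called 10 bins, all of them among the 22. Over all territories the shares of bins called were 0.648% by the FLI1 rule, 0.274% by the RUNX1 rule and 0.197% by the RUNX1 rule after thinning. Part of the fall from 22 to 2 thus came with the stricter rule and part with the thinning, and 1 of the 2 bins called after thinning was not among the 10.

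**Figure D3:**
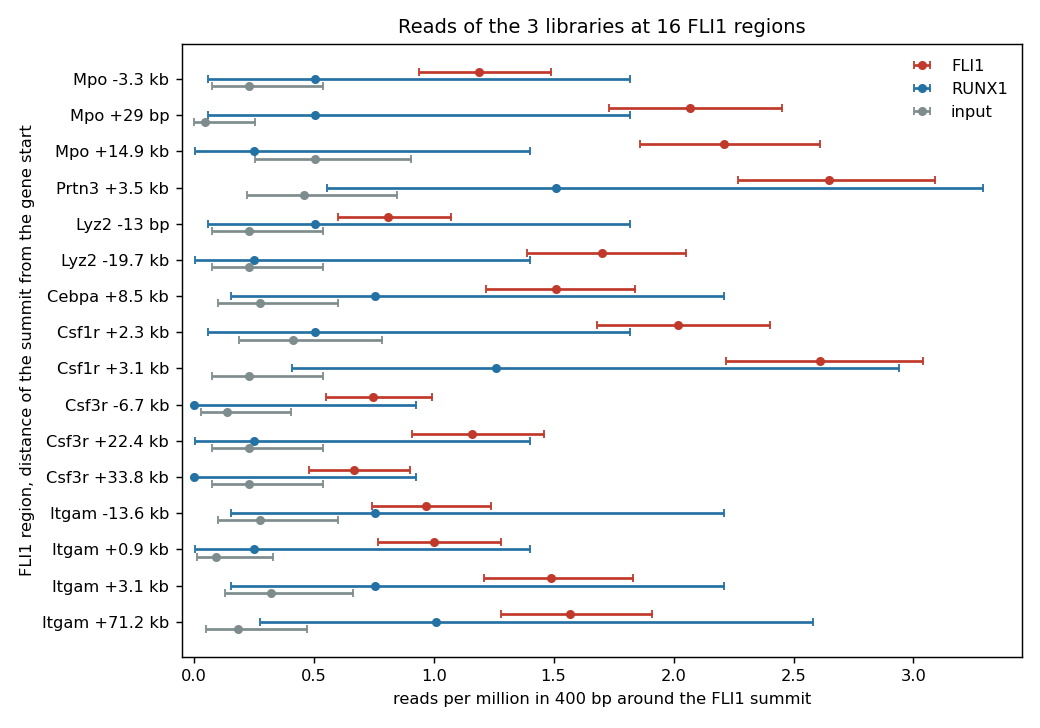
RPM in the 400 bp around the summit (horizontal axis) of each of the 16 FLI1 regions in the FLI1, RUNX1 and input libraries, with exact 95% Poisson intervals as bars. FLI1 holds 42 to 167 reads a region and RUNX1 0 to 6, so that RUNX1 intervals overlap those of input at every region.

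An ETS string lay within 50 bp of the summit in 10 of the 16 FLI1 regions, which is 62.5%. Over all FLI1 regions the share was 62.0%, and in windows of the same length 500 bp away it was 12.0%. The regions at the 10 genes were thus like other FLI1 regions in this respect. A RUNX string was present in 4 of the 16 (*Mpo* downstream, *Lyz2* start, *Itgam* upstream and *Itgam* first intron), against 18.4% of all FLI1 regions and 8.37% of the windows away from them. The C/EBP string, which C/EBP proteins such as the products of *Cebpa* and *Cebpe* bind, was present in 3 of the 16, *Csf3r* upstream, *Itgam* upstream and *Mpo* upstream, against 5.55% of all FLI1 regions and 3.81% of windows away. The GATA string (AGATAA or TGATAA), bound by GATA factors of the erythroid and megakaryocyte lineages, was present in 3, at *Mpo* upstream, *Cebpa* near and the first *Csf1r* region, against 14.0% and 8.57%. All 3 regions with the C/EBP string lay upstream of their gene, outside any promoter. With 16 regions these counts describe the sites and do not set them apart from other FLI1 regions. Neither RUNX1 region had any of the strings within 50 bp. Over all RUNX1 regions the shares were also low, at 21.2% for RUNX, 20.6% for ETS, 12.6% for GATA and 4.08% for C/EBP. The window around *Itgam* upstream is shown on the plus strand with its 2 C/EBP strings, which overlap and lie on opposite strands, in capitals.
Itgam upstream, chr7:135192540-135192640: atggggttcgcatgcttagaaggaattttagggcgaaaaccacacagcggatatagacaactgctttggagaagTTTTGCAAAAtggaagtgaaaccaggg

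RefSeq promoters, from 250 bp before to 50 bp after the start, were given for 8 of the 10 genes in build GRCm38.p6, and each matched mm9 exactly at 1 place. Those of *Cebpe* and *Csf1r* were not used here. An ETS string was found in 6 of the 8 promoters, against 41.4% of the 32851 RefSeq promoters, a RUNX string in 2 (*Lyz2* and *Ctsg*), against 22.4%, and the C/EBP string in 0, against 10.8%. The *Csf3r* promoter held the most ETS strings, 4, with 50 FLI1, 0 RUNX1 and 8 input reads, and its start had no called FLI1 bin. The *Mpo* promoter held 2, with 105 FLI1, 2 RUNX1 and 0 input reads. The 2 promoters without an ETS string were those of *Cebpa* (46 FLI1, 3 RUNX1 and 5 input reads) and *Elane* (10, 1 and 3 reads). Of the others, the *Prtn3* promoter held 2 strings and 38 FLI1 reads, and those of *Lyz2*, *Ctsg* and *Itgam* held 1 string each and 47, 21 and 18 FLI1 reads.
Csf3r promoter, RefSeq GRCm38.p6, on mm9 chr4:125701653-125701952, plus strand: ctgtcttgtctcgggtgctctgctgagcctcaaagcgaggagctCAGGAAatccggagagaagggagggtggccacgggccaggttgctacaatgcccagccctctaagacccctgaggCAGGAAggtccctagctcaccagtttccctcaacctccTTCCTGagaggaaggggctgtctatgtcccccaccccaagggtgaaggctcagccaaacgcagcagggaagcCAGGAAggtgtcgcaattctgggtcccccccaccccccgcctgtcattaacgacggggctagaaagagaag

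The 10 genes were set beside other lists, all compared by their counts alone. The median FLI1 ratio was 1.54 over the 10 genes, 1.28 over all gene starts and 2.45 over 20 megakaryocyte genes. FLI1 was called at 11 of the 20 megakaryocyte starts and RUNX1 at 5, against 25.5% and 14.1% of all starts. The highest for FLI1 were *Itga2b* (5.5, interval 4.06 to 7.64), *Nfe2* (4.92, 3.66 to 6.77) and *Pf4* (4.25, 3.21 to 5.73). A RUNX1 region lay within 2 kb of the start at *Nfe2* and *Gp9* and at none of the 10 genes. Only 1717 RUNX1 regions were called over the genome. How many of all starts have one within 2 kb was not counted, so that this does not set the lists apart. Called FLI1 bins made up 1.76 per 100 bins in the 10 territories (those shared by *Elane* and *Prtn3* counted for both), 1.91 in those of 74 other myeloid genes, 3.63 in those of megakaryocyte genes, 0.722 and 0.889 in those of erythroid and lymphoid genes, and 0.875 over all genes. The density at the 10 genes was thus near that at the other myeloid genes. The median RUNX1 ratio was 0.93 over the 10 genes, 1.18 over all gene starts and 1.64 over the megakaryocyte genes.

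**Figure D4:**
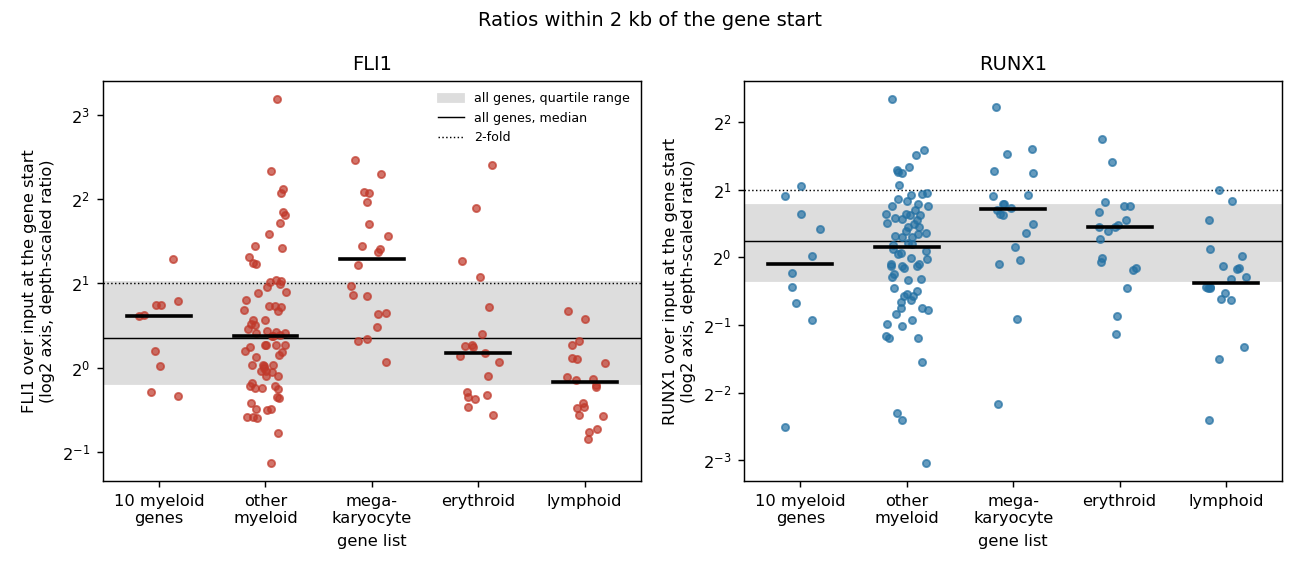
Ratio of FLI1 (left) and RUNX1 (right) to input within 2 kb of the gene start, on log2 axes, for the 10 genes and 4 other gene lists, each point a gene and each bar the median. The grey band is the quartile range of all protein-coding starts; *Mpo* alone of the 10 genes lies above the 2-fold line for FLI1, where 11 of 20 megakaryocyte genes do.

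Another 76 genes were listed under the myeloid lineage, of which 74 were found in the annotation. Whether the listed genes are confined to that lineage was not checked. FLI1 was called at 16 of the 74 starts (21.6%) and RUNX1 at 8 (10.8%), against 25.5% and 14.1% of all protein-coding starts tested. The median ratios were 1.3 and 1.11, near those over all genes. The FLI1 counts of the smaller lists below stand beside the same 25.5%, and differences between the lists were not tested. At least 1 FLI1 bin was called in 61 of the 74 territories, against 60.4% of all protein-coding genes. Of 15 other receptor genes 5 were called for FLI1, led by *Csf2ra* (9.1, interval 5.89 to 14.81), *Itgb2*, the beta chain that pairs with the *Itgam* product (4.22, 3.1 to 5.87), and *Il6ra* (3.5, 2.53 to 4.95). The *Csf2ra* ratio rests on 21 input reads, against 44 at *Itgb2* and 41 at *Il6ra*. *Itgb2* thus lay above *Itgam* (1.54, 1.1 to 2.2), with intervals that did not overlap. Of 9 regulators 4 were called, led by *Zfp36* (5.03), *Egr1* (4.35) and *Sfpi1*, which encodes PU.1 (2.37), and *Egr1* also had a RUNX1 region within 2 kb. Among 11 other genes listed under primary granules 4 were called. They included *Ctsc*, whose product activates the granule proteases, at 3.01 (2.08 to 4.49), *Cd63* at 2.35 and *Calr* at 2.06. Of 6 oxidase genes 2 were called, *Ncf1* (3.59) and *Rac2* (2.67). Of 15 secondary granule genes 1 was called, *Anxa1* (2.73), followed by *S100a9* (1.94) and *S100a8* (1.67). None of 18 monocyte and macrophage genes was called, and their highest values were at *F13a1* (just under 2.0), *Clec4a2* (1.75) and *Ccr2* (1.65). FLI1 was called at 4 of 19 erythroid starts, with *Spna1* (5.29, on 13 input reads), *Tfrc* (3.73) and *Epor* (2.4) the highest, and at 0 of 20 lymphoid starts, where *Rag2* (1.59), *Ebf1* (1.49) and *Gata3* (1.25) were highest.

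The mean profile around the start differed in height. In the bin just downstream of the start, the 10 genes had 0.494 FLI1, 0.227 RUNX1 and 0.161 input RPM per gene. In the bin just upstream they had 0.448 FLI1 and 0.277 RUNX1 RPM, against 1.85 and 0.793 at the megakaryocyte genes and 0.539 and 0.333 over all genes. Over all genes the downstream bin had 0.417 FLI1 and 0.313 RUNX1 RPM. The 10 genes therefore lay below the megakaryocyte genes in the upstream bin. Their downstream FLI1 mean rests in part on *Mpo*, which had 1.24 RPM there, and over the other 9 genes it was 0.411, near the mean of all genes. The highest FLI1 bin near the start of the 10 genes lay 3000 bp downstream, at 0.527 RPM per gene, of which *Csf1r* had 2.4 RPM, and without *Csf1r* the mean was 0.319. With 1 library for each antibody and 10 genes, no error beyond counting was available for these means.

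**Figure D5:**
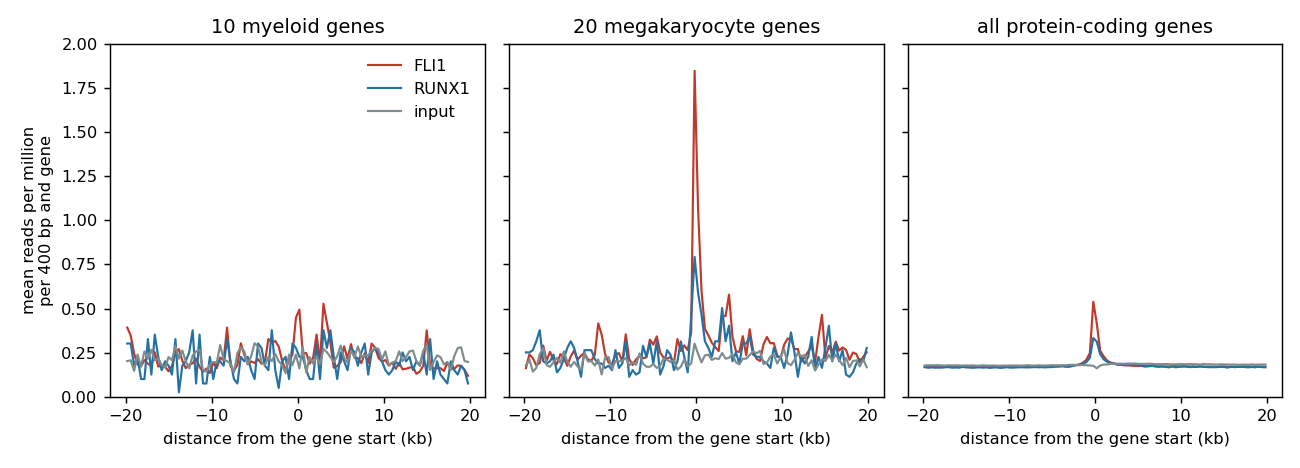
Mean depth-scaled reads per 400-bp bin and gene (vertical axis, RPM) against distance from the gene start in kb, for the 10 genes, 20 megakaryocyte genes and all protein-coding genes. The FLI1 peak at the start reaches 1.85 at megakaryocyte genes and stays at or under 0.539 in the upstream bin of the other panels.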

How the data were processed

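FLI1 ChIP, RUNX1 ChIP and input DNA of mature megakaryocytes were sequenced in 1 library each. The authors mapped the reads to mm9 with Bowtie (version not given in the sources used here), per the methods kept uniquely mapped reads without repeats, and deposited read positions with their strand, 50 bases long for ChIP and 34 for input. The part of this difference in read length in the ratios to input was not tested. Per the labels, MACS 1.4 and SICER 1.1 also belong to the authors' processing, and neither was run here.

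From the deposited positions, mitochondrial reads and repeated input positions (3.24% of the deposited input reads) were removed, and each read was placed 75 bp downstream of its 5′ end. Counts were scaled to the number of remaining reads, as reads per 1000000 (RPM). Ratios to input have exact conditional binomial (Clopper-Pearson) 95% intervals and counts exact Poisson ones. No p-value was computed, since no group has replicates, and PCR without molecular identifiers means that intervals cover counting error only. Opposite-strand reads 80 to 400 bp apart exceeded those 500 to 820 bp apart by 28.5 per 100 plus-strand reads in the RUNX1 library, 25.8 in input and 158.0 in FLI1. Where these are both ends of single fragments, which was not tested, intervals are too narrow.

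Bins of 400 bp were called against an expectation, which is the largest of 3 rates, that of the whole genome (effective size 1.87e9), the input of the bin and the input over 10 kb around it. FLI1 bins needed 3-fold and 20 reads, and RUNX1 bins 5-fold and 7 reads. Adjoining called bins formed a region. The procedure was tested on simulated data. Gene starts are the 5′ ends of GENCODE M1 records. Only protein-coding records were used, so that DNA called intergenic here can hold genes of other kinds. Strings were searched on both strands within 50 bp of summits and in windows 500 bp away. From each list other than the 10 genes, the 3 genes with the highest FLI1 ratio are named, with those that have a RUNX1 region within 2 kb of the start, and genes whose start lies within 2 kb of a called region in the territories. One gene that this rule names is not reported here. *Lpo*, *Itgax*, *Lyz1*, *Slc7a10*, *Acin1*, *Bzrap1*, *Supt4h1* and *Arid3a* were named after their positions were seen. The 10 genes and all lists were chosen with earlier results of these data known. Alternatives changed the window, start, fold, scaling, bins, input, read position, depth and territory. Python 3.11.15, numpy 2.4.6, scipy 1.17.1, pandas 2.3.3, pysam 0.24.0 and samtools 1.23.1 were used.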

Additional observations from a re-analysis of the deposited data

How the results depend on the processing

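No paired analysis was possible because each antibody has 1 library, and for the same reason no library was left out in turn. Of the values for the 10 genes as a set, 40 stayed near the main value under an alternative and 23 moved (a count by over 1.5 times, a ratio beyond its interval), and for single genes 345 stayed and 65 moved. Some of the 345 could not move. The 1.5-fold and 3-fold limits change the call at a start and not its ratio. RefSeq starts change nothing where they equal the GENCODE start or are missing. These tallies are therefore no measure of robustness.

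FLI1 was called at 1 of the 10 starts. The count was 3 (*Mpo*, *Cebpa* and *Lyz2*) within 1 kb of the start, where 36.9% of all starts were called, 2 (*Mpo* and *Csf1r*) at the transcript start with the most FLI1 reads, where 26.7% were, and 6 at 1.5-fold, where 39.5% were. It was 0 at 3-fold (9.3% of all starts) and 0 with ratios divided by the median over all starts (14.7%). The count over the other myeloid genes, 16, became 8 within 5 kb (7.21% of all starts), 25 at 1.5-fold, 8 at 3-fold and 10 with ratios divided by that median. RUNX1 at the starts, 1 in the main count, fell to 0 within 5 kb (3.96% of all starts), at 3-fold (4.08%) and with ratios divided by the median (8.52%). Within 1 kb the single RUNX1 call was *Mpo* (3.79) and not *Cebpa*. Over the alternatives, the FLI1 ratio ran from 1.61 to 4.78 at *Mpo* and from 0.53 to 1.83 at *Prtn3*.

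The 22 FLI1 bins (0.648% of all territory bins) became 53 with 50 kb to either side (0.593%), 37 without input (0.882%), 13 at 4-fold (0.411%), 10 under the RUNX1 rule at full depth (0.274%), and 2 when thinned to the RUNX1 depth under that rule (0.197%), with a bin in 2 genes in place of 8 (35.5% of all genes in place of 60.4%). *Ctsg* and *Cebpe* gained FLI1 bins without input, at 2.5-fold and with bins shifted by 200 bp, *Cebpe* also with 50 kb to either side, and *Ctsg* also with unshifted 5′ ends, with a larger effective genome size and with scaling by reads outside called bins. The 2 RUNX1 bins, in 2 genes, became 7 bins in 7 genes with 50 kb to either side (15.7% of all genes), 4 bins with a minimum of 5 reads (0.282% of all bins in place of 0.0403%), and 0 bins in 0 genes with bins shifted by 200 bp, with unshifted 5′ ends and with a minimum of 10 reads (9.3%, 8.44% and 1.49% of all genes). RefSeq starts and the RUNX1 rule at full FLI1 depth were added as alternatives once the data had been seen.

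Depth limits the RUNX1 values. At *Cebpe*, with 10 RUNX1 reads, the interval of the RUNX1 ratio runs from 0.6 to 2.71. A RUNX1 region not called at one of the 10 genes is not shown to be absent, although 1717 RUNX1 regions were called over the genome at this depth.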

Other observations

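Beyond the territories, within 50 kb of the gene bodies, further called regions lay near several of the 10 genes. Upstream of *Mpo*, 6 FLI1 regions stood between 36913 and 44734 bp from the start, in DNA outside protein-coding genes. Genes of other kinds were not searched for there. The nearest coding starts to these regions are those of *Bzrap1* and *Supt4h1*. The strongest, 38822 bp upstream, was 12.3-fold over expectation with 189 FLI1, 4 RUNX1 and 6 input reads. A RUNX1 region with its summit 41764 bp upstream of *Mpo* had 7 RUNX1, 112 FLI1 and 3 input reads. Near *Elane*, a RUNX1 region 40625 bp downstream of the start lay 106 bp from the start of *Arid3a*, with 8 RUNX1, 91 FLI1 and 3 input reads. Of the RUNX1 regions in these wider flanks, the one upstream of *Prtn3* at 45917 bp had 10 FLI1 reads beside 5 RUNX1 and 5 input reads. These regions lie among other genes, and which gene they act on was not measured.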
